A study of Mus musculus with 3 samples.

Results

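The alarmins and acute-phase proteins are secreted or released by stressed and inflamed cells, and 9 of their genes were followed across the cells of mouse dorsal skin: Saa3, Saa1, Lcn2, Slpi, Hp, S100a8, S100a9, S100a4 and S100a6. They were matched by symbol to 9 of the 32285 genes counted, and the set was chosen by its Saa3 level in the macrophages of 1 group, so those values are given as a description. Single-cell 3′ RNA sequencing had been done on 3 libraries of CD45+ bead-enriched cells, 1 library a group, all from male C57Bl/6 mice of 8 weeks whose hair follicles were in telogen, the resting phase. WT_Ctrl was wild-type skin without irradiation (0 UVB exposures). WT_UV was wild-type skin after 3 UVB exposures, and RP_UV was skin of RP mice after 3 UVB exposures, both collected at day 5. Per the study's methods, RP mice carry Rosa26-rtTA and Tre-Ptgs2, so that doxycycline induces Cox-2, the prostaglandin-making enzyme, in all tissues rather than in 1 cell type. Each library was n = 1, and the cells of RP_UV came from 1 male RP mouse. Transcripts of the Y-linked genes Ddx3y and Eif2s3y were found in every library, at 57.3 to 72.5 and 47.1 to 55.5 CPM (UMIs, or unique transcript counts, of a gene as counts-per-million of all UMIs of the cells), and Xist had 0, 2 and 1 UMIs in WT_Ctrl, WT_UV and RP_UV, so the male label held for each.

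Serum amyloid A proteins are released in the acute phase of inflammation, mostly by the liver, whereas the mouse Saa3 protein is made locally by macrophages, adipocytes and epithelia. Lcn2 (lipocalin 2) withholds iron from bacteria by binding their siderophores, Slpi inhibits neutrophil elastase and related proteases, and Hp (haptoglobin) binds free haemoglobin for uptake by the macrophage receptor Cd163. S100a8 and S100a9 form calprotectin, a calcium- and zinc-binding complex stored in the neutrophil cytosol and also made by stressed epidermis, and S100a4 and S100a6 are calcium-binding proteins that many cell types make at rest.

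Of the 6 members that were higher in RP_UV than in WT_UV in both macrophages and keratinocytes, Saa3, Lcn2, S100a8 and S100a9 take up most of the results, so the 250 bases before the annotated start of each are printed first, 5′ to 3′ on the strand of the gene, from RefSeq on GRCm38.p6. Hp, another of the 6, was higher in keratinocytes only through a few cells with adipocyte transcripts, described below. Capitals mark each match to TTNNGNAA, the letters of a C/EBP-type site, searched on both strands. The windows are chr7:46715677-46715926 on the minus strand for Saa3, chr2:32387740-32387989 on the minus strand for Lcn2, chr3:90668821-90669070 on the plus strand for S100a8 and chr3:90695722-90695971 on the minus strand for S100a9.
Saa3: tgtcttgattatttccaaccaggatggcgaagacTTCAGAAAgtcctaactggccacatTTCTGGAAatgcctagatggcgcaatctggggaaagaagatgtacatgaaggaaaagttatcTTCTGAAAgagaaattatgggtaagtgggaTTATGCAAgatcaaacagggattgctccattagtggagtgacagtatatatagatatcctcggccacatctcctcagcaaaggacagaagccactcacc
Lcn2: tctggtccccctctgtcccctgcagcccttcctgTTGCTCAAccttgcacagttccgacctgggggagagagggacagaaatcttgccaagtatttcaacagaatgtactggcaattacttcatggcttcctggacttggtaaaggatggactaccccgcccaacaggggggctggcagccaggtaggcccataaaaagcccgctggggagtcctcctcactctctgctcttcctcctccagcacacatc
S100a8: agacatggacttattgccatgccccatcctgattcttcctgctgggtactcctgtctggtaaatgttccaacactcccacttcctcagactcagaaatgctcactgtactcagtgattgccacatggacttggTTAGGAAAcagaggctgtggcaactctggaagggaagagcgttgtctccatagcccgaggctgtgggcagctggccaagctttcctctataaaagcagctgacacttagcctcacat
S100a9: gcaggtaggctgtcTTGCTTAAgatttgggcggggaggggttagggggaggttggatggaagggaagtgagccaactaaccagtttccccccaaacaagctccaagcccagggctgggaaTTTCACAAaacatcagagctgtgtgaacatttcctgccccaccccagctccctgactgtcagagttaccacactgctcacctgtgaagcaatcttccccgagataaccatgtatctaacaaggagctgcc
Of the 9 members, 8 had a window in the RefSeq table. In windows that also took in 50 bases after the start, Saa3 had 4 matches, beginning 216, 191, 129 and 99 bases before the start, Slpi had 3, Saa1 and S100a9 had 2 each, and Lcn2 and S100a8 had 1 each. S100a4 and S100a6 had 0. At least 1 match stood in 40.7% of all 32851 windows of that length, and 4 or more stood in 0.852%. A match is a run of letters and not a measured binding site.

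The libraries were compared within cell classes. Names were rebuilt from marker genes and each is to be read as "X-like", which for the best filled classes left 1839, 2313 and 2254 macrophages or monocytes in WT_Ctrl, WT_UV and RP_UV, 1202, 521 and 1113 keratinocytes, and 14, 59 and 580 neutrophils, of 5309, 5225 and 6070 cells kept. There were 197 fibroblasts in WT_Ctrl and 196 in RP_UV but 3 in WT_UV, so fibroblasts of WT_UV were not compared. Cells of WT_UV were deeper, with a median of 10557 UMIs a cell against 4246 in WT_Ctrl and 3774 in RP_UV, and the labels place WT_UV on another flow cell than the other two. In any comparison with WT_UV, run and group cannot be told apart, and RP_UV against WT_Ctrl, which shared a run, differs in UVB and genotype together. Between 8 and 11 cell barcodes were shared by a pair of libraries. Ptgs2 over all kept cells was 14.4 in WT_Ctrl, 117.5 in WT_UV and 486 in RP_UV, in CPM, the highest in the library labelled as overexpressing, although the transgene is a rat gene counted on a mouse reference. That value also depends on the mix of cells. In WT_Ctrl, WT_UV and RP_UV, keratinocytes had 5.68, 5.67 and 587.9 CPM and macrophages 8.34, 107.1 and 166.1. Neutrophils went the other way, with 6223 CPM in WT_UV and 4706 in RP_UV.

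With 1 library a group there was no replicate check and no testing of differences. Where 3 values follow each other unnamed, they stand for WT_Ctrl, WT_UV and RP_UV in that order. The 95% intervals are exact Poisson intervals for a level, exact conditional intervals for a ratio and Wilson intervals for a share, and they cover counting error only. A gene with at least 20 UMIs over both libraries was counted as higher or lower in a class when its CPM differed by 2-fold or more, and a ratio to a library with 0 UMIs is a lower bound set at 3 UMIs.

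Saa3 in macrophages was counted at 0.566 CPM in WT_Ctrl (95% interval 0.154 to 1.45, 4 UMIs), 10.1 in WT_UV (8.93 to 11.3, 278 UMIs) and 209.9 in RP_UV (201.7 to 218.3, 2486 UMIs). The 3 intervals were apart, and the level of RP_UV was 20.8 times that of WT_UV (18.4 to 23.7), a log2 ratio of 4.38, and 371 times that of WT_Ctrl (145 to 1363). Saa3 was in the class at low level already in irradiated wild-type skin, 17.8 times WT_Ctrl (6.88 to 65.9), but there the transcripts were held by few cells. The 5 richest cells of WT_UV held 42.5% of the class's Saa3 UMIs, and 1 cell held 85 of the 278. In RP_UV 456 macrophages held a Saa3 UMI, the richest had 134, and the 5 richest held 18.1%.

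The share of macrophages with Saa3 followed the same order at equal depth. With each cell thinned to 2000 UMIs, Saa3 was found in 0.193% of 1555 macrophages of WT_Ctrl, 1.31% of 2220 of WT_UV and 12.6% of 2047 of RP_UV (11.2 to 14.1), after 284, 93 and 207 shallower cells had been left out. The unthinned shares were 0.218%, 5.23% and 20.2%, at median depths of 3803, 10936 and 4662.5 UMIs. T cells, a class that should lack Saa3, held it after thinning in 0 of 187, 0 of 440 and 0 of 13 cells, and the last count allows a share of up to 23.1%. Unthinned, it was in 0, 0.662% and 2.13% of T cells, the last being 1 of 47 cells, at median depths of 2252, 5104 and 1671 UMIs. In RP_UV the low number and depth of T cells thus limit what they can say of free Saa3 RNA.

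Within the macrophages of RP_UV, Saa3 varied widely between clusters. Cluster c1.0, led by Lyve1, Ednrb, Cd209f and Folr2, genes of macrophages that lie along vessels, had 733 cells and 435 CPM, with 1395 UMIs in 215 cells. Cluster c0.1, led by Ccl8, had 205 CPM in 613 cells, and c20.0 had 530 CPM from only 17 UMIs in 39 cells. The other clusters of RP_UV lay at 49.1 CPM or below, and c2.0 had 0 UMIs in 32 cells. In WT_UV the highest clusters were c1.2 at 22.1 CPM, where 13 of 440 cells held 107 UMIs, and c2.1, where 51 of 399 cells held a UMI. Libraries filled different clusters, and of the 4 clusters with at least 20 cells of both irradiated libraries, Saa3 was higher in RP_UV in 3 and lower in 1.

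**Figure D1:**
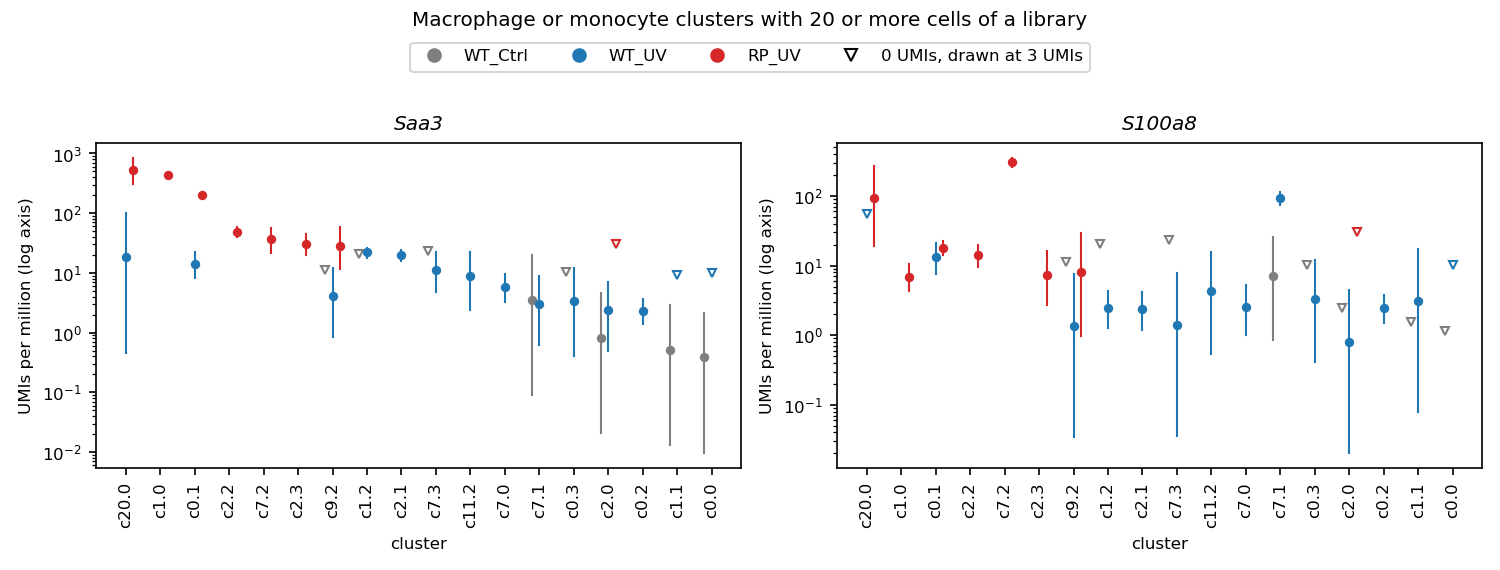
Level of Saa3 (left) and S100a8 (right) in each macrophage or monocyte cluster with 20 or more cells of a library, in CPM on a log axis, with points coloured by library, vertical lines for exact Poisson 95% intervals and open triangles for 0 UMIs drawn at 3 UMIs. Saa3 of RP_UV reaches 435 in c1.0 and 205 in c0.1, whereas no WT_UV cluster passes 22.1.

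Saa1, the liver-type acute-phase protein whose sequence is close to that of other Saa genes, was near the limit of detection. Macrophages held 0, 1 and 1 Saa1 UMIs in WT_Ctrl, WT_UV and RP_UV. It was found in fibroblasts, at 7.49 CPM in WT_Ctrl (9 UMIs) and 13.1 in RP_UV (13 UMIs), a ratio of 1.75 with an interval of 0.692 to 4.64. Schwann cells had 21.4 CPM in WT_Ctrl from 4 UMIs and 9.51 in RP_UV from 5. No class showed a difference of Saa1 beyond its counting interval in those comparisons.

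Saa3 was not restricted to macrophages. In fibroblasts it was at 0.833 CPM in WT_Ctrl (1 UMI) and 1385 in RP_UV (1313 to 1460, 1373 UMIs), a ratio of 1663 whose interval of 298 to 65750 reflects the single control UMI. These transcripts lay in 31 of the 196 cells, and the richest had 379. The 5 richest cells held 70.7%. Without the 5 cells with most Saa3 in each library WT_Ctrl had 0 UMIs left, so the log2 ratio of 10.7 became a lower bound of 7.39. Cluster c12.1, led by Dcn, Col3a1 and Clec3b, was the fibroblast cluster filled by both libraries, with 0 Saa3 UMIs in 25 cells of WT_Ctrl and 840 UMIs in 18 of 63 cells of RP_UV. Cluster c12.2 held 517 UMIs in 8 of 60 cells and c12.3 held 14 UMIs in 3 of 27, so Saa3 occurred in a minority of fibroblasts of each cluster.

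In keratinocytes Saa3 was at 0.387 CPM in WT_Ctrl (3 UMIs), 0.460 in WT_UV (3 UMIs) and 15.7 in RP_UV (13.1 to 18.7, 125 UMIs). The interval of RP_UV lay above both others, at 34.1 times WT_UV (11.4 to 168). However, 1 cell held 71 of the 125 UMIs, and the level without the cells that also held Adipoq, described with Hp, was 6.82 CPM. In the other classes of RP_UV the levels were 19.0 CPM in Schwann cells (10 UMIs), 12.7 in pericytes or smooth muscle cells (7 UMIs), 9.67 in dendritic cells (10 UMIs) and 7.81 in endothelial cells (9 UMIs). Neutrophils of RP_UV had 56.7 CPM (42.5 to 74.2) from 53 UMIs in 27 of 580 cells, and those of WT_UV had 0 UMIs in 59 cells, which makes RP_UV at least 3.51-fold higher.

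**Figure D2:**
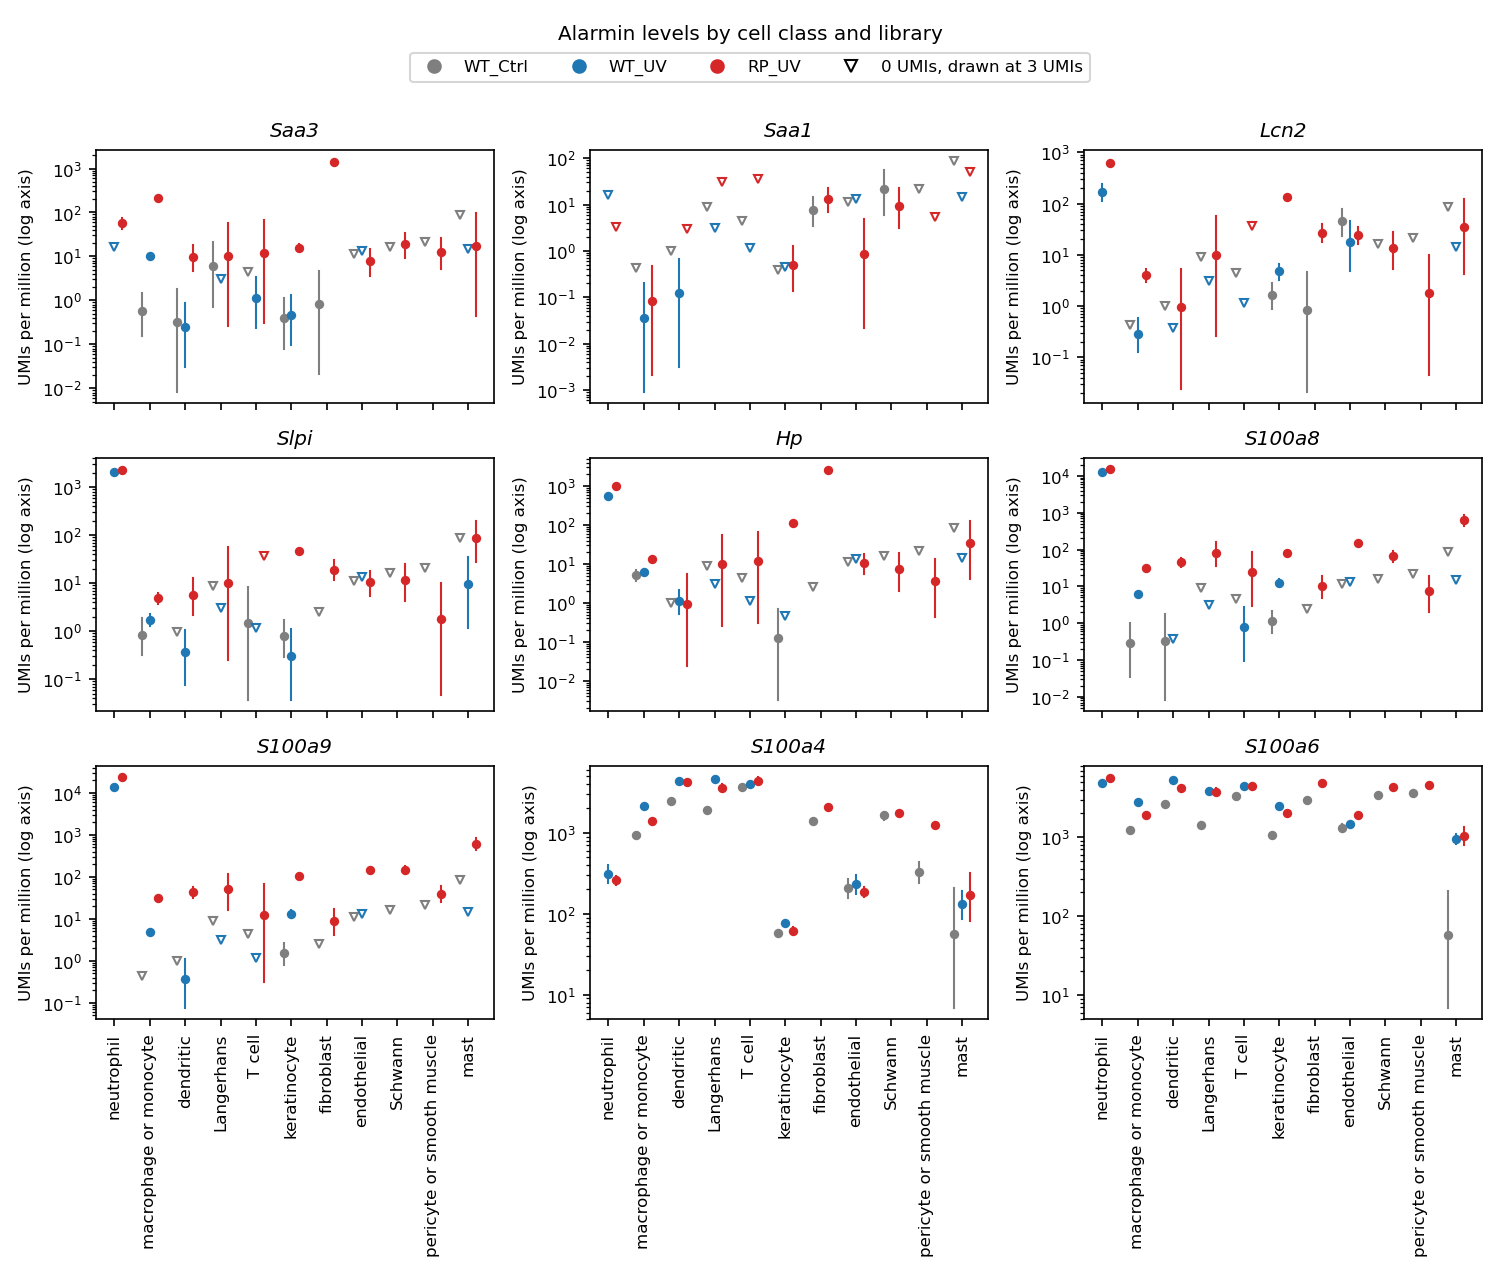
Level of each of the 9 genes in 11 cell classes, in CPM on a log axis, with points coloured by library, vertical lines for exact Poisson 95% intervals and open triangles for 0 UMIs drawn at 3 UMIs. Saa3 of RP_UV is at 1385 in fibroblasts and 209.9 in macrophages or monocytes, S100a8 and S100a9 peak in neutrophils, and S100a4 and S100a6 are present in every class.

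Lcn2 was highest in neutrophils, and outside them its level in RP_UV was highest in keratinocytes. Keratinocytes had 1.68 CPM in WT_Ctrl (0.893 to 2.87, 13 UMIs), 4.75 in WT_UV (3.23 to 6.74, 31 UMIs) and 134.1 in RP_UV (126.2 to 142.4, 1069 UMIs). RP_UV was far above both wild-type libraries, 28.2 times WT_UV (19.8 to 41.8) and 80.0 times WT_Ctrl (46.6 to 151), and WT_UV was 2.83 times WT_Ctrl (1.44 to 5.90), which was below 2-fold, at a log2 ratio of 0.94, with classes from marker UMIs. In RP_UV 193 keratinocytes held Lcn2 and the 5 richest held 18.6%. Basal keratinocytes of RP_UV had 185 CPM, suprabasal ones 73.1 and follicle ones 75.9.

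Clusters of keratinocytes differed widely in Lcn2. Cluster c17.4 of RP_UV, led by Fgfbp1, Krt14 and Apoc1, had 780 CPM, with Lcn2 in 24 of its 26 cells. Cluster c22.0, led by Fgfbp1, Apoc1 and the lipid-synthesis genes Scd1 and Elovl6, had 8.84 CPM in WT_Ctrl from 2 UMIs in 24 cells and 518 CPM in RP_UV from 406 UMIs, held by 47 of 63 cells. Of the 9 clusters filled by both irradiated libraries, Lcn2 was higher in RP_UV in 6 and at 0 in both in 3. Thinned to 2000 UMIs, 0 of 1062 keratinocytes of WT_Ctrl, 0.249% of 402 of WT_UV and 11.8% of 857 of RP_UV held Lcn2, and the unthinned shares were 0.832%, 2.69% and 17.3% at median depths of 6070, 9242 and 5986 UMIs. T cells held 0 Lcn2 UMIs in each library.

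Lcn2 in macrophages was much lower. There were 0 UMIs in WT_Ctrl, 8 in WT_UV (0.290 CPM) and 48 in RP_UV (4.05 CPM, 2.99 to 5.37), a ratio of RP_UV to WT_UV of 13.97 (6.55 to 34.2). Fibroblasts had 0.833 CPM in WT_Ctrl (1 UMI) and 27.2 in RP_UV (27 UMIs), a ratio of 32.7 (5.39 to 1339). Without the 5 richest cells of each library WT_Ctrl had 0 UMIs left, so that log2 ratio of 5.03 became a lower bound of 1.53. With cells thinned to 2000 UMIs the log2 ratio was 1.16. Endothelial cells had Lcn2 at 45.1 CPM in WT_Ctrl (12 UMIs), 17.5 in WT_UV (4 UMIs) and 24.3 in RP_UV (28 UMIs). Most of it lay in the 19 cells of cluster c10.6, led by Ccl21a with Prox1, genes of lymphatic vessels, which held 11, 4 and 16 of those UMIs in 12, 1 and 6 cells. Without that cluster the endothelial levels were 4.29, 0 and 10.5 CPM, and what the differences in class level come from was not tested.

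Slpi in keratinocytes was at 0.774 CPM in WT_Ctrl (6 UMIs), 0.306 in WT_UV (2 UMIs) and 47.6 in RP_UV (42.9 to 52.6, 379 UMIs). The RP_UV level was 155 times that of WT_UV (42.7 to 1286) and 61.5 times that of WT_Ctrl (28.0 to 168), but 1 cell held 205 of the 379 UMIs. Without the 5 richest cells of each library WT_UV had 0 UMIs left, so the log2 ratio to WT_UV of 7.28 became a lower bound of 4.73. Suprabasal keratinocytes of RP_UV had 91.9 CPM and basal ones 16.4. In macrophages the Slpi levels were 0.849, 1.74 and 4.81 CPM, so RP_UV was 2.77 times WT_UV (1.85 to 4.15), and the ratio of WT_UV to WT_Ctrl of 2.05 had an interval of 0.876 to 5.86. The latter, a log2 ratio of 1.04, was 0.95 with thinned cells and 0.03 without the cells that held a UMI of a neutrophil tracer gene.

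Hp, the haemoglobin binder, was unevenly distributed in fibroblasts and keratinocytes of RP_UV. In fibroblasts it was at 0 UMIs in WT_Ctrl and 2605 CPM in RP_UV (2582 UMIs), at least 1043-fold higher, and in keratinocytes at 1, 0 and 914 UMIs in WT_Ctrl, WT_UV and RP_UV, which is 114.7 CPM in RP_UV and at least 249.5-fold above WT_UV. These UMIs came from very few cells. In RP_UV 15 fibroblasts held Hp and the 5 richest held 95.6%, while 7 keratinocytes held it and 1 of them held 717 UMIs.

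Cells with transcripts of adipocytes carried most of this Hp. Of the RP_UV cells, 8 had at least 2 UMIs of Adipoq, which encodes the adipocyte hormone adiponectin, against 0 cells in the other libraries, and 4 of them had been named fibroblasts, 3 keratinocytes and 1 lay in an unnamed cluster. The 8 cells together held 254 Adipoq UMIs and 1237 of Car3, a carbonic anhydrase abundant in adipocytes, but 4 Krt14, 5 Krt5 and 4 Col1a1 UMIs. All 8 held Hp, between 14 and 1455 UMIs with a median of 280, and they held 3301 of the 4870 Hp UMIs of RP_UV, 67.8%, at 30467 CPM. Without them Hp was at 206.6 CPM in RP_UV fibroblasts (196 UMIs in 11 cells) and 1.64 CPM in keratinocytes (13 UMIs in 4 cells). These cells were singled out after their values had been seen.

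Saa3 and Lcn2 depended much less on those 8 cells. They held 311 of the 4356 Saa3 UMIs of RP_UV, 7.14%, in 6 cells, and 61 of the 1922 Lcn2 UMIs, 3.17%, and no UMI of Slpi, S100a8 or S100a9. Without them Saa3 was at 1270.4 CPM in fibroblasts, from 1205 UMIs in 27 cells, and at 6.82 CPM in keratinocytes, from 54 UMIs in 51 cells. Lcn2 in keratinocytes was then at 133.9 CPM. The 3 keratinocytes among these cells thus held more of that class's Saa3 than all its other cells together, whereas the Saa3 of fibroblasts and the Lcn2 of keratinocytes came mainly from other cells.

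In macrophages the Hp levels were 5.23, 6.27 and 13.5 CPM, and the ratio of RP_UV to WT_UV was 2.15 (1.73 to 2.69), a log2 ratio of 1.11 that went to 0.66 with fewer than 4000 genes in every library and to 0.84 as a mean over cells. WT_UV and WT_Ctrl did not differ beyond counting error, with a ratio of 1.20 (0.836 to 1.76). Within this class, most Hp of the wild-type libraries lay in the monocyte-like clusters, at 124 CPM in WT_Ctrl (35 UMIs in 67 cells) and 127 in WT_UV (125 UMIs in 98 cells), whereas macrophage clusters alone had 0.295, 1.80 and 12.3 CPM. In RP_UV cluster c7.2, led by Chil3, Vcan and Ccl2, had 157 CPM of Hp in 100 cells.

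Calprotectin was a transcript of neutrophils in every library that held them. S100a8 of neutrophils was at 12387 CPM in WT_UV and 14937 in RP_UV, a ratio of 1.21 (1.15 to 1.26), and was found in 519 of 580 RP_UV neutrophils. S100a9 was at 13980 and 23350 CPM, a ratio of 1.67 (1.60 to 1.74). Slpi, at 2049 and 2263 CPM, gave a ratio of 1.10 (0.990 to 1.24), and Hp, at 543 and 1011 CPM, gave 1.86 (1.51 to 2.31). Lcn2 had 31 UMIs in WT_UV neutrophils and 577 in those of RP_UV, levels of 166.7 CPM (113.3 to 236.7) and 617.1 CPM (567.8 to 669.6) and a ratio of 3.70 (2.58 to 5.50). So 2 of the 8 members tested in neutrophils, Saa3 and Lcn2, were higher in RP_UV by 2-fold or more, where 11.6% of all genes tested were. The Saa3 call depends on few cells, since 5 neutrophils of RP_UV held 31 of its 53 Saa3 UMIs. For Lcn2, 5 cells of WT_UV, the lower library, held 26 of its 31 UMIs. With the 5 richest cells of each library left out, Lcn2 was at 29.9 CPM in WT_UV and 527.7 in RP_UV. Without the 5 richest cells of each library the Saa3 log2 ratio, a lower bound, was 0.45, under 2-fold. The count of members higher was then 7 of 8, all but S100a6, at 4196.5 CPM in WT_UV and 5492.2 in RP_UV. That count takes in Saa3 only because WT_UV had 0 Saa3 UMIs. In this setting 5 of only 59 cells left WT_UV.

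The neutrophils of RP_UV were themselves uneven. Cluster c8.2, led by Retnlg, G0s2 and Slc7a11 with Stfa2l1 and Pglyrp1 among its leading genes, had Lcn2 at 2581 CPM, Slpi at 4685 and Hp at 2342 in 87 cells. Cluster c8.0, led by Clec4e, Ifitm1 and Clec4d, had Lcn2 at 275, Slpi at 1974 and Hp at 758 in 361 cells. Within c8.1, which both irradiated libraries filled, Lcn2 was at 83.9 CPM in 44 cells of WT_UV (12 UMIs) and 369.5 in 104 cells of RP_UV (109 UMIs), while Slpi was at 1845 and 1874.

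Outside neutrophils S100a8 and S100a9 were far lower but highest in RP_UV. Macrophages had S100a8 at 0.283 CPM in WT_Ctrl (2 UMIs), 6.05 in WT_UV (167 UMIs) and 31.4 in RP_UV (372 UMIs), and the ratio of RP_UV to WT_UV was 5.19 (4.31 to 6.26). S100a9 was at 0 UMIs, 4.82 CPM (133 UMIs) and 31.4 CPM (372 UMIs), with a ratio of 6.51 (5.33 to 8.00). The log2 ratio of S100a9 in WT_UV to WT_Ctrl, a lower bound of 3.51, had bounds of 0.69 with fewer than 4000 genes in every library and 0.42 without the cells that held a neutrophil tracer UMI, both under 2-fold. In WT_UV the 5 richest macrophages held 61.7% of the S100a8 and 91.7% of the S100a9 UMIs, and in RP_UV the 5 richest held 42.2% of S100a8, which 125 cells carried. Monocyte-like clusters of WT_UV, which are part of this class, had S100a8 at 92.7 CPM (91 UMIs) and S100a9 at 69.3 (68 UMIs). Macrophage clusters alone had S100a8 at 0, 2.86 and 28.4 CPM and S100a9 at 0, 2.44 and 27.9. In RP_UV cluster c7.2, led by Chil3, Vcan and Ccl2, held 42.7% of the S100a8 UMIs, at 304.1 CPM.

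Keratinocytes had S100a8 at 1.16 CPM in WT_Ctrl (9 UMIs), 12.6 in WT_UV (82 UMIs) and 81.1 in RP_UV (74.9 to 87.6, 646 UMIs). S100a9 followed at 1.55, 13.3 and 104.7 CPM. The wild-type libraries differed as well: WT_UV was 10.8 times WT_Ctrl for S100a8 (5.43 to 24.5) and 8.61 times for S100a9 (4.69 to 17.3), and RP_UV was 6.45 times WT_UV (5.12 to 8.22) and 7.85 times (6.29 to 9.91). Of the 9 clusters filled by both irradiated libraries, S100a8 was higher in RP_UV in 5 and lower in 3, and S100a9 was higher in 5 and lower in 2. As a mean of the levels of single cells, in which each cell weighs equally, RP_UV was below 2-fold above WT_UV, at log2 ratios of 0.51 for S100a8 and 0.78 for S100a9 in place of 2.69 and 2.97. Levels differed between layers, as suprabasal keratinocytes of RP_UV had S100a8 at 180.6 CPM and basal ones at 9.45, the reverse of the order for Lcn2. Cluster c4.1, led by Krt16, Krt14 and Cstdc5 with Krt6a, had S100a8 at 95.1 CPM in WT_UV (46 UMIs in 11 of 42 cells) and 304.9 in RP_UV (421 UMIs in 20 of 135 cells). Of these genes, Krt16 and Krt6a encode keratins of wounded epidermis. Single cells weighed heavily here too, as 1 keratinocyte of RP_UV held 274 S100a8 UMIs and 5 held 75.7%.

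**Figure D3:**
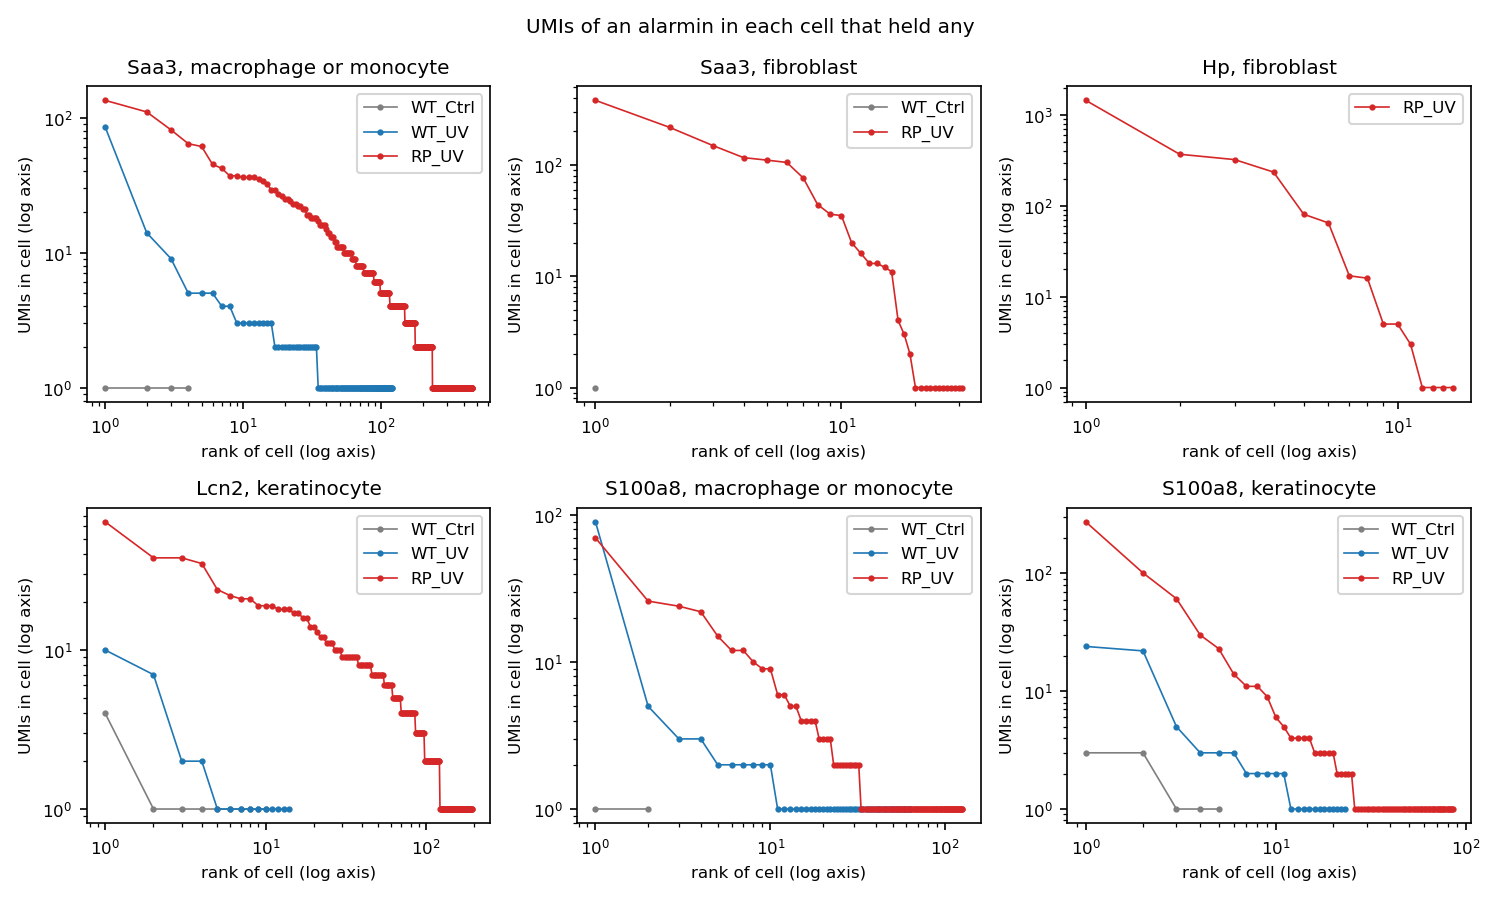
UMIs in each cell that held any UMI of a gene, ranked from the richest cell, with both axes on a log scale and lines coloured by library, for 6 pairs of gene and class. The curve of Saa3 in RP_UV macrophages extends over 456 cells from 134 UMIs, whereas that in RP_UV fibroblasts extends over 31 cells from 379 UMIs.

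Since neutrophils made up 9.56% of RP_UV cells, the alarmins seen in other classes were set beside the amount that neutrophil RNA could bring. The UMIs of the tracers Retnlg, Cxcr2, Mmp8, Ly6g and Stfa2l1 in a class were divided by their level in the neutrophils of the same library (for WT_Ctrl, with 14 neutrophils, those of WT_UV and RP_UV together), which gives the share of a class's UMIs that would be neutrophil RNA if every tracer UMI were carried. In macrophages this share was 0.0113% in WT_Ctrl, 0.217% in WT_UV and 0.193% in RP_UV, from 3, 156 and 91 tracer UMIs. In RP_UV macrophages the measured level over the carried level was 1919 for Saa3, 6.93 for Hp, 3.40 for Lcn2, 1.10 for Slpi, 1.09 for S100a8 and 0.697 for S100a9. By this estimate S100a8 and Slpi of RP_UV macrophages lay at about the carried level, S100a9 lay below it and Saa3 far above it. In WT_UV macrophages the measured S100a8, S100a9 and Slpi, at 6.05, 4.82 and 1.74 CPM, all lay below the carried levels. Carried RNA cannot exceed what was measured, so the tracers together overstate it there. After this level was subtracted, the log2 ratio of Slpi in RP_UV to WT_Ctrl turned from 2.50 to -0.42, and was 1.80 by Retnlg alone.

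The tracers did not occur in macrophages in the proportions of neutrophils. Of the 156 tracer UMIs of WT_UV macrophages 133 were Mmp8, in 82 cells, and 0 were Retnlg, whereas neutrophils of WT_UV held 216 Retnlg and 19 Mmp8 UMIs. By Retnlg alone, with 28 UMIs in RP_UV macrophages, the carried share was 0.106%, and the measured level over the carried one was 3499 for Saa3, 2.01 for Slpi and 1.99 for S100a8. In keratinocytes of RP_UV, with 38 tracer UMIs of which 31 were Cxcr2, the measured level over the carried one was 231 for Saa3, 182 for Lcn2, 94.8 for Hp, 17.6 for Slpi, 4.53 for S100a8 and 3.74 for S100a9. In RP_UV fibroblasts it was 10716 for Saa3 and 19.4 for Lcn2 but 0.296 for S100a8. The tracers count what free or engulfed neutrophil RNA and mixed droplets bring together, and their separate parts were not tested.

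**Figure D4:**
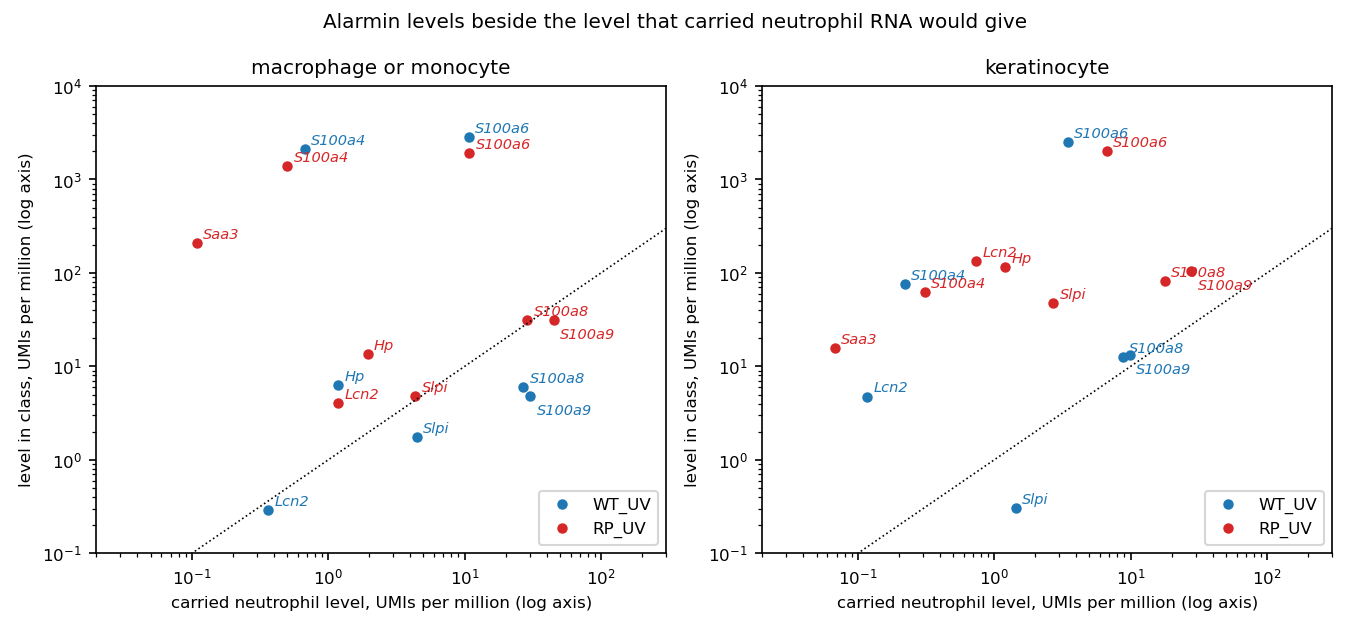
Level of each gene in macrophages or monocytes (left) and keratinocytes (right) against the level that carried neutrophil RNA would give, both in CPM on log axes, for WT_UV and RP_UV, with a dotted line where they are equal. In RP_UV macrophages S100a8, S100a9 and Slpi lie near the line, at 1.09, 0.697 and 1.10 times the carried level, and Saa3 lies 1919 times above it. In WT_UV macrophages S100a8, S100a9 and Slpi lie below the line.

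The levels of the calprotectin pair were also set against each other. S100a8 over S100a9 UMIs was 0.886 in neutrophils of WT_UV (0.837 to 0.938) and 0.640 in those of RP_UV (0.626 to 0.654), so that neutrophils themselves did not have 1 ratio. In RP_UV macrophages held 372 UMIs of each, with an interval for the ratio of 0.864 to 1.16, but 5 cells held 42.2% of the S100a8 and 55.1% of the S100a9 UMIs. The ratio was 1.03 in endothelial cells (0.829 to 1.28), 0.775 in keratinocytes (0.698 to 0.859), and 0.461 in Schwann cells. These intervals cover counting error and not the spread between cells, and what the differences in ratio come from was not tested. Mast cells of RP_UV illustrate how few droplets can set a level, as their 634.9 CPM of S100a8 came from 37 UMIs in 2 cells.

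In RP_UV macrophages Saa3 and the calprotectin genes were also compared cell by cell. At 2000 UMIs a cell, S100a8 was in 1.55% of the 258 cells with Saa3 and 2.68% of the 1789 without, and Lcn2 was in 0.388% and 0.559%. Retnlg was in 0 of the former and 3 of the latter. C1qa, a complement gene of macrophages, was in 98.1% and 97.0%, and the fibroblast collagen Col1a1 in 1.55% and 2.29%. S100a4 was in 53.9% of the cells with Saa3 (47.8 to 59.9) and 75.7% of those without, and S100a6 in 71.7% and 88.4%. These cells came from 1 library, so the shares are a description.

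S100a4 and S100a6 were found in every class and moved differently from the other members. In macrophages S100a4 was at 951.5 CPM in WT_Ctrl, 2130.3 in WT_UV and 1389 in RP_UV, and S100a6 at 1248, 2826 and 1897. WT_UV was the highest of the 3 for both, at 2.24 times WT_Ctrl for S100a4 (2.18 to 2.30) and 2.27 times for S100a6 (2.22 to 2.32), and RP_UV was at 0.652 and 0.671 of WT_UV. In the 8 macrophage clusters filled by both wild-type libraries, each gene was higher in WT_UV in all 8. Among RP_UV clusters S100a4 ran from 623 CPM in c20.0 and 642 in c1.0, the 2 clusters with most Saa3, to 3735 in c7.2.

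In Langerhans cells S100a4 was at 1938 CPM in WT_Ctrl, 4599 in WT_UV and 3626 in RP_UV, and in dendritic cells at 2468, 4371 and 4233. T cells stayed within narrower bounds, at 3722, 4066 and 4398 CPM. Keratinocytes had little S100a4, at 57.5, 76.5 and 62.1 CPM, and their S100a6 went from 1082 in WT_Ctrl to 2507 in WT_UV and 2010.3 in RP_UV, although the log2 ratio of WT_UV to WT_Ctrl of 1.21 was 0.71 as a mean over cells. In pericytes or smooth muscle cells S100a4 was at 331 CPM in WT_Ctrl and 1261 in RP_UV, 3.81 times higher (2.83 to 5.23). Fibroblasts had ratios of RP_UV to WT_Ctrl of 1.52 for S100a4 and 1.66 for S100a6, under 2-fold.

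Counted over the set, 6 of the 8 members tested in macrophages were higher in RP_UV than in WT_UV, all but S100a4 and S100a6, where 3.78% of all 12707 genes tested were higher. The median log2 ratio of these 8 members was 1.92, against -0.06 over all genes. In WT_UV against WT_Ctrl 6 of 7 were higher, where 7.23% of genes were, with Hp below 2-fold. In RP_UV against WT_Ctrl 6 of 8 were higher, where 6.99% of genes were. Saa3 of macrophages was the reason for choosing the set and is among these counts. Taking off the carried neutrophil level left 3 of the 7 in WT_UV against WT_Ctrl, namely Saa3, S100a4 and S100a6. That level rests on Mmp8 in WT_UV and lay above the measured S100a8, S100a9 and Slpi there, so it takes off too much. Retnlg had 0 UMIs there, so by Retnlg alone nothing was subtracted from WT_UV, and the 6 that stayed are no check of the count. In RP_UV against WT_UV the count was 5 by all tracers and 3 by Retnlg alone, namely Saa3, Lcn2 and S100a8, as Slpi, Hp and S100a9 then had log2 ratios of 0.47, 0.99 and 0.47. By Retnlg alone the subtraction lowered RP_UV only, so the libraries were not treated alike.

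In keratinocytes 6 of 8 members were higher in RP_UV than in WT_UV, where 7.56% of all genes tested were, and again S100a4 and S100a6 were not among them. Hp was among the 6 only through the 3 keratinocytes with at least 2 Adipoq UMIs. The other keratinocytes held 13 Hp UMIs in RP_UV and 0 in WT_UV, under the minimum of 20. In WT_UV against WT_Ctrl 4 of 5 were higher, namely Lcn2, S100a8, S100a9 and S100a6, where 3.98% of genes were. With cells thinned to 2000 UMIs 0 were, since S100a8, S100a9 and Lcn2 then had under 20 UMIs and S100a6 a log2 ratio of 0.70 in place of 1.21. In RP_UV against WT_Ctrl 6 of 8 were higher, where 9.78% of genes were, and Hp, with 1 UMI in WT_Ctrl, again counted only through the cells with Adipoq. In fibroblasts 3 of 6 were higher in RP_UV than in WT_Ctrl, Saa3, Hp and Lcn2, where 9.86% of genes were. The comparisons share libraries and are not separate evidence.

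**Figure D5:**
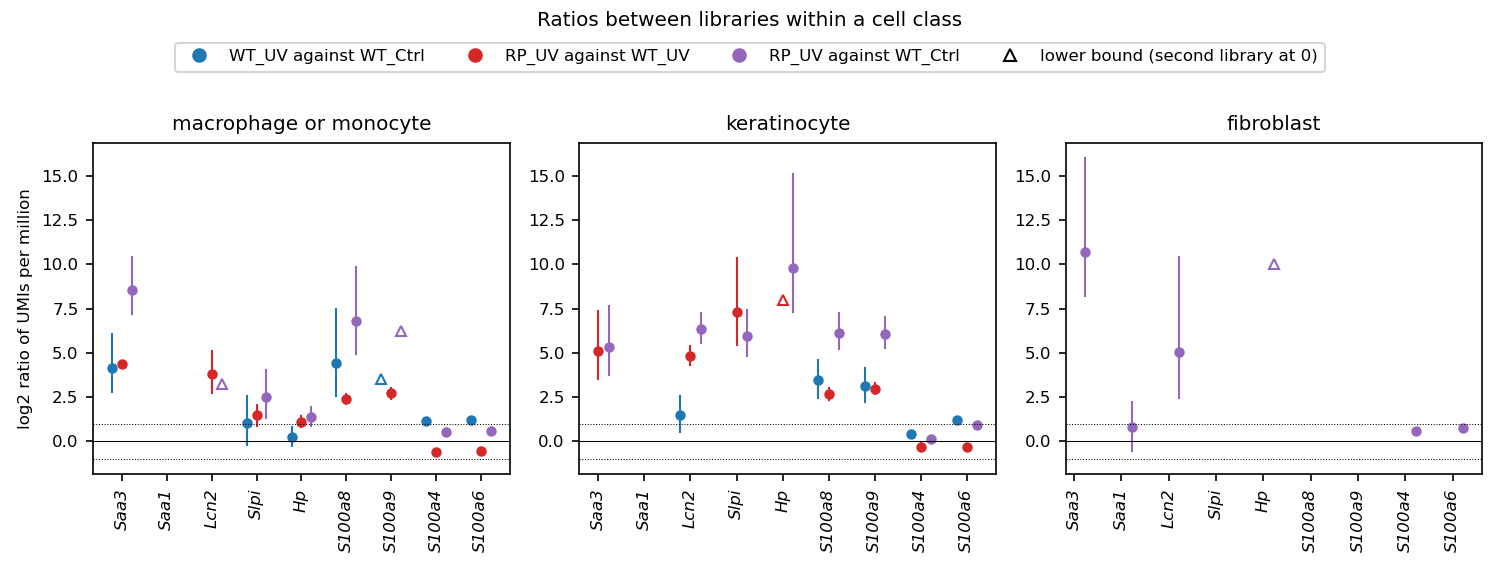
Log2 ratio of CPM between libraries for each gene with at least 20 UMIs, in macrophages or monocytes, keratinocytes and fibroblasts, with points coloured by comparison, vertical lines for exact 95% intervals, open triangles for lower bounds and dotted lines at 2-fold. In macrophages RP_UV against WT_UV ranges from 4.38 for Saa3 to -0.62 for S100a4.

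The genes around these alarmins were described from fixed lists. Of 12 receptors of the alarmins, 11 were tested in macrophages and none differed by 2-fold between RP_UV and WT_UV. Of all genes tested in macrophages 3.78% were higher in that comparison, so none higher of 11 is near that share. No such share is set beside the genes that were lower. Cd163, the haptoglobin receptor, had levels of 843.9, 769.3 and 710.0 CPM, and Tlr4, a receptor for calprotectin, of 72.1, 57.6 and 57.4. Of 6 other acute-phase genes tested, Serpina3n, a protease inhibitor, was 5.19 times and Lbp, which binds lipopolysaccharide, 2.70 times higher in RP_UV, and Serpina3g and the complement gene C3 were lower, at 0.143 and 0.367 of WT_UV. None of 6 other S100 genes tested differed by 2-fold. In WT_UV against WT_Ctrl, Cd69 was 4.57 times and Fpr2, a receptor for serum amyloid A, 2.52 times higher, the scavenger receptor Cd36 was at 0.470, the ferroxidase gene Cp at 0.340 and S100a11 at 2.23 times.

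Of 10 cytokines and factors that lie upstream of acute-phase genes, Il6 was 4.53 times higher in RP_UV macrophages than in WT_UV and Il1b was lower, at 0.432 of WT_UV, with 438.9 CPM in WT_UV and 189.4 in RP_UV. In WT_UV against WT_Ctrl 4 of 10 were higher, where 7.23% of all genes were, Il1b by 6.44-fold, Osm by 13.5-fold, Tnf by 4.25-fold and Socs3 by 2.11-fold. In the fixed list of neutrophil granule genes, Wfdc21 was 8.68 times and Chil3 4.62 times higher in RP_UV than in WT_UV macrophages and Cybb was at 0.450. Chil3 also led a macrophage or monocyte cluster described above, so its level is not read here as neutrophil RNA. Of 3 neutrophil tracers tested 2 were higher, Cxcr2 by 3.15-fold and Retnlg by at least 21.7-fold, where 3.78% of all genes were. In WT_UV against WT_Ctrl Chil3 was 5.25 times and the tracer Mmp8 34.1 times higher. In RP_UV fibroblasts 6 of 9 of the upstream genes were higher than in WT_Ctrl, where 9.86% of all genes were, with Il6 at 32.7 times and Il1b at 7.67 times, and 4 of 6 other acute-phase genes were higher, among them Ptx3 at 18.6 times and Serpina3n at 3.43 times. In keratinocytes of RP_UV Il1b was 4.52 times, Serpina3n 22.9 times and C3 10.7 times the level of WT_UV. The keratinocyte transcripts Krt5 and Krt14 were themselves 2.57 and 3.99 times higher in RP_UV than in WT_UV macrophages. So 2 of 5 such tracers were higher, where 3.78% of all genes were, and their part in the macrophage values was not tested.

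Over 30 units of class and library, the genes whose levels were most like each member's were found by Pearson correlation of log2(CPM + 10), as a description of units that share libraries and depth. S100a8 was closest to S100a9 (r = 0.99), Slpi (0.95) and Cxcr2 (0.94), and Lcn2 to Slpi (0.87), S100a9 (0.84) and S100a8 (0.84). Saa3 was closest to Car3 (0.80), Mup17 (0.77) and Adipoq (0.76), over units in which the fibroblasts and keratinocytes of RP_UV include the cells with Adipoq, and S100a4 to Nfatc2 (0.82), Ppm1m (0.75) and Vhl (0.74). Among pairs of members, Saa3 and Hp had r = 0.70 and Saa3 and S100a8 r = 0.25.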

How the data were processed

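As deposited by the authors, each matrix held whole UMI counts of genes in called cells from Cell Ranger 6.1.1 (version per the file headers, mm10 per the submitters' processing notes), with 34985549, 82722013 and 37689836 UMIs for WT_Ctrl, WT_UV and RP_UV and no normalization. Cells were kept as in the study's methods (mitochondrial share under 10%, more than 200 genes, fewer than 4000, or 6000 in WT_UV). The 3 libraries were integrated with sctransform 0.4.2 and Seurat 5.3.0 in R 4.3.3 (3000 features without the 9 genes, 30 dimensions, resolution 0.8), which gave 28 clusters. Those of at least 100 cells were split with leidenalg 0.10.2 in scanpy 1.11.5 (resolution 0.5, 20 dimensions, 1000 variable genes) into 135 clusters, of which 91 were named from marker panels and 44 stayed unnamed. A name needed 3 markers in 10% of cells, a score of 1 and a lead of 0.5, and the limits on scores and depth were set after the clusters had been seen. A class needed 20 cells in a library.

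Raw UMIs were summed by class and library and divided by all UMIs of the class to give CPM. Intervals came from scipy 1.17.1, and scripts were tested on simulated data. Shares used cells thinned to 2000 UMIs. Doublets were not removed, since Scrublet marked too few cells in WT_UV and RP_UV, and leaving out the 5% of cells with the highest scores was an alternative. The other alternatives changed class rules, gene limits, summing, depth, carried neutrophil RNA and totals. Planned comparisons of fibroblasts with WT_UV were not made. The 9 genes, the gene lists and the rules for named genes were chosen with earlier results of these data known. By the rule, the text names the 9 genes, up to 4 genes of a list that differed by 2-fold in macrophages and were largest in ratio, receptors by level, and the 3 genes most like Saa3, Lcn2, S100a8 and S100a4. Other genes and clusters were chosen after their values had been seen.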

Additional observations from a re-analysis of the deposited data

Results flagged for a closer look

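Cells of clusters that could not be named entered no comparison of the report, and in irradiated libraries several alarmins were above their level in such cells of the unirradiated library. In WT_Ctrl, WT_UV and RP_UV respectively there were 927, 1158 and 821 such cells. Saa3 was at 0.401 CPM in WT_Ctrl, 4.54 in WT_UV and 72.7 in RP_UV. S100a8 was at 3.41 CPM in WT_Ctrl, 52.4 in WT_UV and 860.8 in RP_UV, and S100a9 at 3.00, 70.8 and 1207. Slpi was at 2.80, 6.86 and 134.3 CPM. Lcn2 was at 4.41, 0.397 and 42.1 CPM and Hp at 2.003, 1.758 and 64.3, so both were above WT_Ctrl in RP_UV. In WT_UV Lcn2 was below WT_Ctrl. The Hp intervals of WT_Ctrl (0.9605 to 3.683) and WT_UV (1.194 to 2.495) overlapped. S100a4 was at 2459.4, 3852.1 and 2309.5 CPM. The unnamed cells of the libraries are not of 1 kind. The highest calprotectin levels of such clusters with cells of RP_UV were those of c7.4, with 40 cells of RP_UV, Chil3, Pf4 and Stab1 as leading genes, S100a8 at 3031 CPM and Saa3 at 86.4, and of c1.3, with 13 cells of RP_UV, Lyve1 and Ednrb as leading genes, S100a8 at 2504 CPM and Saa3 at 831.3. Both had been left unnamed because they were deep and scored for more than 1 lineage.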

How the results depend on the processing

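No paired analysis was possible because each group had 1 library. Of 107 counts of members higher under an alternative, 100 stayed within 1.5 times the reported count and 7 did not. In macrophages, WT_UV against WT_Ctrl, the count went from 6 to 3 after the carried neutrophil level was subtracted. That level lay above the measured S100a8, S100a9 and Slpi of WT_UV. By Retnlg alone, with 0 UMIs in WT_UV, nothing was taken from WT_UV and the count stayed at 6. In RP_UV against WT_UV the count went from 6 to 3 by Retnlg alone, which lowered RP_UV only. In neutrophils it went from 2 to 7 without the 5 richest cells of each library, with Saa3 counted although its lower bound was under 2-fold. In keratinocytes, WT_UV against WT_Ctrl, it went from 4 to 0 with cells thinned to 2000 UMIs. In fibroblasts, RP_UV against WT_Ctrl, it went from 3 to 6 with classes from marker UMIs, with unnamed clusters given to their best panel and with no minimum of UMIs, where more members could be tested. The Saa3 log2 ratio of macrophages, RP_UV against WT_UV, went from 4.38 to 4.69 with fewer than 4000 genes in every library and to 4.89 without the 5 cells richest in Saa3, and lay between 4.22 and 4.49 otherwise. The share of RP_UV macrophages with Saa3 was 12.6% at 2000 UMIs, 9.13% at 1000 and 20.2% without thinning. The carried neutrophil share of RP_UV macrophages was 0.193%, and 0.106% by Retnlg alone. Of 692 values of single members, 531 kept within counting error, 160 moved beyond it and 1 reversed, the log2 ratio of Slpi in macrophages, RP_UV against WT_Ctrl, which was -0.42 after the carried level was subtracted and 1.80 by Retnlg alone. The cause of these shifts was not tested. Neutrophils of WT_UV (59 cells) and T cells of RP_UV (47 cells) limit the depth behind their values.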
